A study of Homo sapiens with 12 samples.

Results

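The genes described here are 40 genes of DNA replication and S-phase entry, followed in U2OS, an established human cell line of osteosarcoma origin. They were chosen by name, with earlier results of these data known. All 40 were found by gene symbol among the 58735 rows of the raw count table. All 40 passed the filter on low counts that left 17290 genes for testing. RNA sequencing gave 12 libraries, 3 from each of 4 groups treated for 24 h: a solvent control (DMSO), TH10785 at 10 µM, PNKP1i at 10 µM, and TH10785 with PNKP1i, each at 10 µM (called the combination). TH10785 is known as an activator of OGG1, which excises oxidised guanine from DNA, and PNKP1i is named in the labels without a structure. The comparisons ask how each compound alone, and the pair, altered the transcriptome of these cells, which the labels describe as 1 cell line with no further genotype.

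Before a cell copies its genome, the origin recognition complex, CDC6 and CDT1 load the ring-shaped MCM2 to MCM7 helicase onto replication origins, and geminin (GMNN) blocks this loading once S phase has begun. Cyclin E with CDK2, and other kinases, then promote the recruitment of CDC45 and the GINS complex to start the helicase, DNA polymerase alpha with its primase makes primers, and replication factor C loads the sliding clamp PCNA. Ribonucleotide reductase, thymidylate synthase and related enzymes supply the deoxynucleotides, and chromatin assembly factor 1 rebuilds nucleosomes behind the fork. Many of these genes are transcribed late in G1 by E2F factors when the retinoblastoma protein is phosphorylated, so their RNA follows the share of cells entering S phase as well as the activity of each cell. In these bulk libraries, fewer cells in S phase and less RNA per cell cannot be told apart.

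Depth ran from 16225339 to 21546369 counts per library, and every level below is in CPM, the count scaled to a common library size by TMM. The mesenchymal markers of the line were present, 7 of 7, with a summed level of 3740 to 4390 CPM in the DMSO libraries and 2200 to 2890 CPM in the combination libraries. Epithelial markers summed to 45 to 52 CPM with DMSO and to 19.4 to 28.1 CPM with the combination. The lower sum came from CLDN4, at 39.8 to 45.9 CPM with DMSO and 9 to 20.1 CPM with the combination. ESRP1 was higher with the combination (1.6 to 4.65 CPM, against 0 to 0.299 with DMSO), as was CDH1, while EPCAM and GRHL2 overlapped. Leukocyte markers summed to at most 0.724 CPM in any library, with 3 of 5 at 0 throughout. Endothelial markers summed to 4.5 to 4.85 CPM with DMSO and 1.79 to 3.3 CPM with the combination. Of these, VWF was lower in each combination library than in each DMSO library, and PECAM1, CDH5 and KDR overlapped. TH10785 replicate 3 stood apart from its partners: genes whose longest transcript had a GC content under 40% lay at a median of -0.63 (log2, against the DMSO mean) in it and at 0.21 and 0.1 in replicates 1 and 2. Combination replicate 1 had the lowest sum over the 40 genes, 3870 CPM, against 5200 and 4760 CPM in replicates 2 and 3 and 5830 to 6160 CPM with DMSO. The part of these library differences in the results below was not tested beyond the values given with and without each library.

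Promoter sequences were available in the RefSeq table (GRCh38.p14) for 35 of the 40 genes. The E2F recognition sequence was searched as the words TTTCCCGC, TTTCGCGC, TTTGCCGC and TTTGGCGC on both strands of the 250 bases before each listed start site. A gene with several listed start sites was counted as holding a word if any of them did, for members and all genes alike. TTTGGCGC on one strand can overlap TTTCGCGC on the other, and both are then counted. At least 1 word was found in 14 of 35 genes (40%), against 928 of 27303 genes with a promoter entry (3.4%) and 729 of 15841 protein-coding genes (4.6%). CCAAT, the word read by NF-Y, was found on either strand in 21 of 35 (60%), against 37% of all genes and 40.2% of protein-coding genes. These are matches of letters and not measured binding. Other forms of the E2F sequence were not searched, so a gene counted as without a word may hold one. The 160 bases before the start are printed for 6 genes, 5′ to 3′ on the gene's strand with E2F words in capitals, chosen to set the E2F factors and a nucleotide enzyme that fell with the combination beside a gene with 4 words and no call and a pair of clamp loader genes that rose.
E2F1 chr20:33686386-33686545 (-): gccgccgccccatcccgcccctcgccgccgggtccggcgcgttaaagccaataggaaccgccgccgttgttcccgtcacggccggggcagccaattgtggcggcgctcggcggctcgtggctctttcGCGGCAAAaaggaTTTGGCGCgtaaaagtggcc
E2F2 chr1:23531234-23531393 (-): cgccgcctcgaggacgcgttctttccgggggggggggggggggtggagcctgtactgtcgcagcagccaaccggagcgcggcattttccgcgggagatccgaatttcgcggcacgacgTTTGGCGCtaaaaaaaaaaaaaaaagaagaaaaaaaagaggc
TYMS chr18:657493-657652 (+): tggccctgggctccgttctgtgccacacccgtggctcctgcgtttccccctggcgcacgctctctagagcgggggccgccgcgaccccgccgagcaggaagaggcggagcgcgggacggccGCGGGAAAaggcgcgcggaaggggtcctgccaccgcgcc
MCM6 chr2:135876444-135876603 (-): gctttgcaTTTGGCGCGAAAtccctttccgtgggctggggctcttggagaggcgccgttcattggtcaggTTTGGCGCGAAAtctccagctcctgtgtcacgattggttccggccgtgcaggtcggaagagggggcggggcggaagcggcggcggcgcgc
RFC3 chr13:33817989-33818148 (+): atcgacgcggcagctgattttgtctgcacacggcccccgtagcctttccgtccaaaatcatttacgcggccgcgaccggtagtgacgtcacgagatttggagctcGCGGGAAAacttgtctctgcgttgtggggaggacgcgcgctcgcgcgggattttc
RFC1 chr4:39366363-39366522 (-): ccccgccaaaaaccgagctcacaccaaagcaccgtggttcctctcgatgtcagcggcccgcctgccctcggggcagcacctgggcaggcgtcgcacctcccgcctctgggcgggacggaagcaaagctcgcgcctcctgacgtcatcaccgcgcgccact
In E2F1, an S-phase transcription factor that also regulates itself, the words ended 26 and 13 bases before the start, and in E2F2, a close relative, the word ended 35 bases before it. TYMS held 1 word and RFC3, which rose, also held 1. MCM6, which did not pass the test with the combination, held 4 words in overlapping pairs, and RFC1, the member that rose most, held none in this window. By the calls against DMSO given below, 7 of the 15 matched genes that fell held an E2F word, as did 1 of the 4 that rose and 6 of the 16 with no call. CCAAT was found in 7 of the 15 that fell, 2 of the 4 that rose and 12 of the 16 with no call.

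The combination lowered more of these genes than it raised, and neither compound alone moved any of them past the test. Against DMSO, 22 of the 40 genes were called with the combination at an adjusted p under 0.05 (edgeR's quasi-likelihood test, Benjamini-Hochberg over all 17290 genes): 5 rose and 17 fell. Of all genes tested, 41% were called, 21.3% higher and 19.7% lower, so the share of members that rose (12.5%) was under the background and the share that fell (42.5%) was over it. Because the list was drawn up with earlier results of these data known, this contrast is not an independent test. The median log2 difference was -0.26 over the members and 0.04 over all genes. In 18 members every combination library lay below every DMSO library, and in 4 every one lay above; over all genes these shares were 25.2% and 28.4%. The E2F factors, thymidine kinase and the regulated subunit of ribonucleotide reductase were among the lowest. The clamp loader genes RFC1, DSCC1 and RFC3 were the highest, while RFC5, another clamp loader subunit, fell. The count was 17 (5 rose, 12 fell) when combination replicate 1 was left out, 14 (1 rose, 13 fell) when DMSO replicate 2 was left out, and 16 (1 rose, 15 fell) when combination replicate 3 was left out. Libraries also differed by GC content: all genes under 40% GC lay at a median of 0.46 to 0.80 in the combination libraries, against the DMSO mean, and at -0.63 in TH10785 replicate 3. A fit with offsets for GC content and transcript length is therefore given beside these calls: in it 19 members were called, of which 1 (RFC1) rose and 18 fell. Such offsets cannot tell a library difference from a treatment difference that follows GC content or length, and they remove both.

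**Figure D1:**
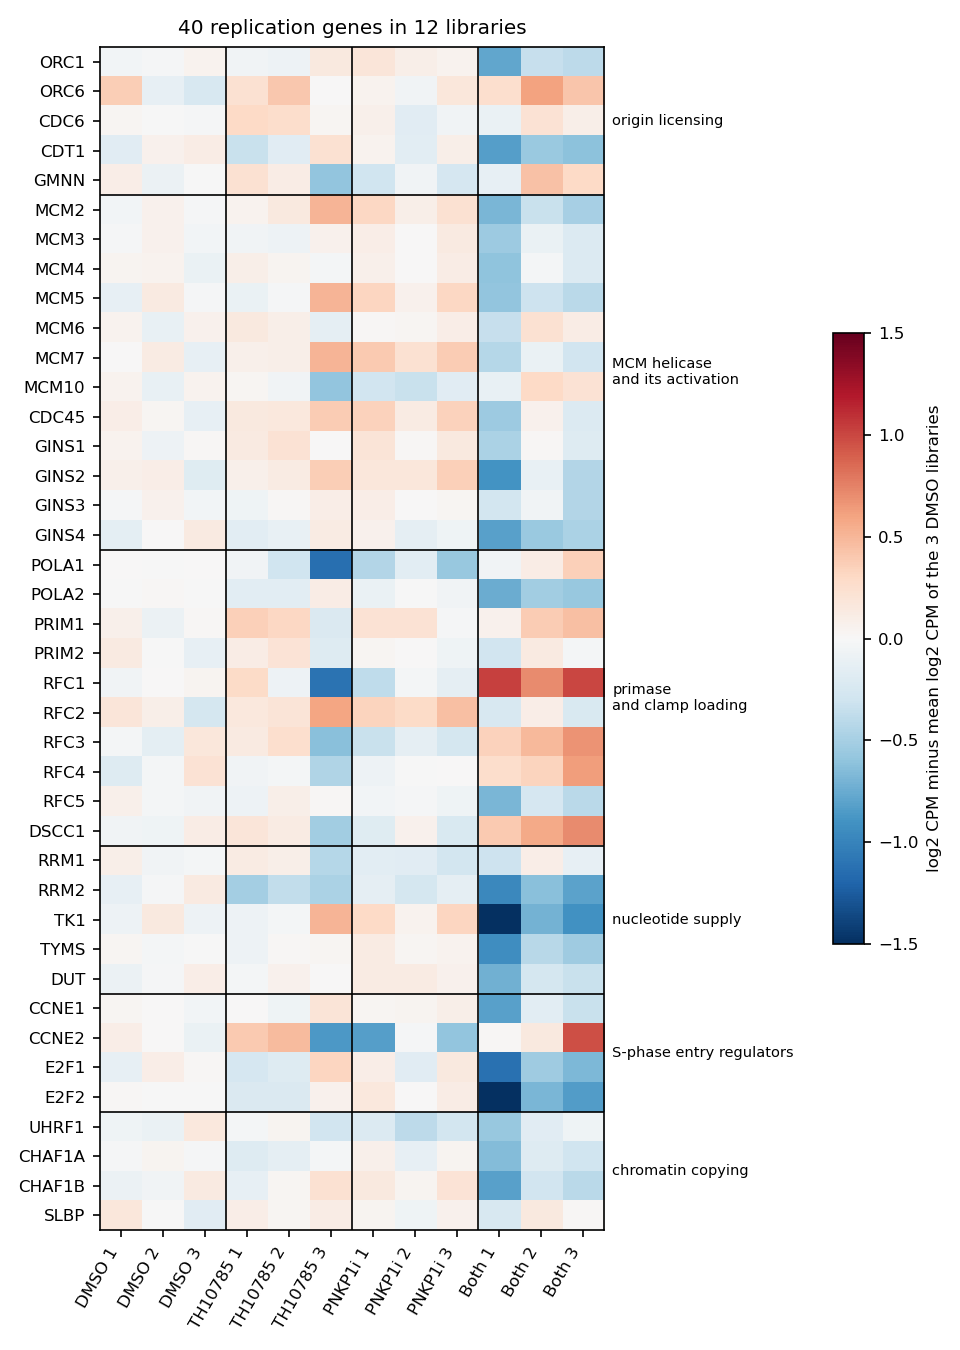
Log2 CPM of the 40 genes (rows, grouped by role) in the 12 libraries (columns), as the difference from the mean of the 3 DMSO libraries; colours saturate at 1.5 in either direction, which E2F2 and TK1 pass in combination replicate 1 (Both 1). Blue fills the combination columns for most helicase, nucleotide and E2F genes, red fills them for RFC1, RFC3, RFC4 and DSCC1, and TH10785 replicate 3 differs from its partners in POLA1 and RFC1.

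Among the 5 origin licensing genes, 2 fell and 1 rose with the combination. CDT1 (ENSG00000167513, chromosome 16, 88803213 to 88809258), which brings the helicase to the origin, read 178, 209 and 216 CPM in the DMSO libraries (replicates 1 to 3, in this order throughout), 159, 178 and 234 after TH10785, 208, 179 and 213 after PNKP1i, and 113, 136 and 131 with the combination. The combination libraries were below all the others, while the other groups overlapped one another. The mean was 201 ± 20 CPM with DMSO and 126 ± 12 CPM with the combination (SD, n = 3), a fall of 1.59-fold (log2 -0.67, SE 0.14, adjusted p = 0.0016). With GC and length offsets the difference was -0.21 (adjusted p = 0.0835). ORC1 (ENSG00000085840, chromosome 1, 52372829 to 52404459), the largest subunit of the origin recognition complex, was at 54.4, 55.3 and 58.2 CPM with DMSO, 54.1, 53.0 and 62.1 after TH10785, 63.6, 59.4 and 58.1 after PNKP1i, and 32.7, 44.2 and 42.6 with the combination. Again the combination stood below the 9 other libraries, and ORC1 fell 1.41-fold (log2 -0.49, SE 0.13, adjusted p = 0.00537; with offsets -0.40, adjusted p = 0.00716). ORC6 (ENSG00000091651, chromosome 16, 46689643 to 46698394), the small subunit of the same complex, gave 48.2, 34.4 and 31.7 CPM with DMSO, 43.8, 49.6 and 37.6 after TH10785, 38.7, 36.2 and 42.0 after PNKP1i, and 44.6, 56.7 and 50.0 with the combination. DMSO replicate 1 lay inside the combination's range, and the rise of 0.40 (SE 0.16) passed at an adjusted p of 0.0489. That call was lost in 13 of 21 alternatives, among them without DMSO replicate 2 (adjusted p = 0.176) or 3 (0.208), PNKP1i replicate 1 (0.0586), 2 (0.0609) or 3 (0.0636), TH10785 replicate 2 (0.0536), and combination replicate 2 (0.159) or 3 (0.0916). CDC6, the loading ATPase, and GMNN, the inhibitor of CDT1, stood at log2 0.08 (adjusted p = 0.624) and 0.23 (adjusted p = 0.356).

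Of the 12 genes of the MCM helicase and its activation, 4 fell and 0 rose with the combination. GINS4 (ENSG00000147536, chromosome 8, 41529206 to 41545046), a subunit of the GINS complex, read 86.3, 96.1 and 105 CPM with DMSO, 85.7, 88.1 and 104 after TH10785, 100, 87.0 and 91.4 after PNKP1i, and 54.4, 65.0 and 68.9 with the combination. All combination libraries were below the other 9, and GINS4 fell 1.53-fold (log2 -0.61, SE 0.12, adjusted p = 0.00121), with -0.58 under GC and length offsets. GINS2 (ENSG00000131153, chromosome 16, 85676198 to 85690073), its partner, was at 98.0, 100 and 82.3 CPM with DMSO, 98.4, 101 and 120 after TH10785, 105, 105 and 119 after PNKP1i, and 50.1, 85.9 and 68.9 with the combination. DMSO replicate 3 and combination replicate 2 overlapped, and the fall of 0.45 on the log2 scale (SE 0.16, adjusted p = 0.0301) was lost without DMSO replicate 1 (adjusted p = 0.0832) or 2 (0.106) and without combination replicate 1 (log2 -0.26, adjusted p = 0.154) or 3 (adjusted p = 0.0709). GINS1 and GINS3 did not pass, at -0.20 (adjusted p = 0.207) and -0.25 (0.127), but did so with offsets, at -0.64 (adjusted p = 0.00117) and -0.52 (0.0064).

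Within the helicase ring, MCM2 and MCM5 fell and the other subunits did not pass the test. MCM2 (ENSG00000073111, chromosome 3, 127598223 to 127622436) gave 245, 264 and 249 CPM with DMSO, 263, 279 and 360 after TH10785, 313, 269 and 296 after PNKP1i, and 157, 201 and 179 with the combination. MCM5 (ENSG00000100297, chromosome 22, 35400063 to 35425430) gave 389, 464 and 418 CPM with DMSO, 395, 418 and 604 after TH10785, 527, 443 and 525 after PNKP1i, and 280, 341 and 319 with the combination. For both subunits the combination lay below every other library, and TH10785 replicate 3 was the highest library of all. MCM2 fell by 0.50 on the log2 scale (SE 0.13, adjusted p = 0.00704) and MCM5 by 0.44 (SE 0.15, adjusted p = 0.0304); with offsets neither passed, at -0.19 (adjusted p = 0.143) and -0.13 (adjusted p = 0.401). The call for MCM5 was also lost without DMSO replicate 2 (adjusted p = 0.123) or 3 (0.0615), PNKP1i replicate 1 (0.0516), or combination replicate 1 (0.116) or 3 (0.0676). MCM3, MCM4, MCM6 and MCM7 stood at -0.27, -0.26, 0.02 and -0.27 (adjusted p = 0.0844, 0.122, 0.916 and 0.137). MCM7 (ENSG00000166508, chromosome 7, 100092728 to 100101940) read 963, 1040 and 878 CPM with DMSO, 1010, 1020 and 1360 after TH10785, 1260, 1120 and 1250 after PNKP1i, and 711, 893 and 786 with the combination, so the combination overlapped DMSO and lay below both single agents. CDC45 (ENSG00000093009, chromosome 22, 19479459 to 19520612), which joins the ring to form the active helicase, had the same order: 147, 140 and 126 CPM with DMSO, 152, 153 and 179 after TH10785, 175, 150 and 174 after PNKP1i, and 94.5, 144 and 119 with the combination (log2 against DMSO -0.21, SE 0.14, adjusted p = 0.241). MCM10 (ENSG00000065328, chromosome 10, 13161554 to 13211104), a firing factor, did not pass and overlapped DMSO, with 65.8, 58.8 and 65.5 CPM with DMSO, 64.4, 61.1 and 41.9 after TH10785, 51.8, 50.2 and 56.1 after PNKP1i, and 58.7, 77.7 and 73.6 with the combination (log2 0.14, SE 0.15, adjusted p = 0.463).

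The 10 genes of primase and clamp loading held 4 of the 5 rises. RFC1 (ENSG00000035928, chromosome 4, 39287456 to 39366375), the large subunit of replication factor C, read 34.5, 35.9 and 36.7 CPM with DMSO, 43.4, 33.9 and 16.6 after TH10785, 27.4, 34.9 and 32.6 after PNKP1i, and 72.4, 58.2 and 71.7 with the combination. The combination was above every other library, and TH10785 replicate 3 was the lowest of the 12. Its mean of 35.7 ± 1.1 CPM with DMSO became 67.4 ± 8.0 CPM, and RFC1 rose 1.89-fold (log2 0.92, SE 0.23, adjusted p = 0.00439), and with GC and length offsets by 0.53 (adjusted p = 0.00617). DSCC1 (ENSG00000136982, chromosome 8, 119833976 to 119856010), part of an alternative clamp loader used for cohesion, was at 24.0, 23.8 and 26.9 CPM with DMSO, 28.1, 27.1 and 17.3 after TH10785, 21.9, 26.0 and 21.2 after PNKP1i, and 32.7, 36.9 and 40.8 with the combination (log2 0.57, SE 0.17, adjusted p = 0.0133). RFC3 (ENSG00000133119, chromosome 13, 33818049 to 33966558), a small subunit, was at 24.2, 22.3 and 27.7 CPM with DMSO, 27.0, 29.3 and 15.9 after TH10785, 19.5, 22.5 and 20.5 after PNKP1i, and 31.2, 34.6 and 39.4 with the combination (log2 0.50, SE 0.19, adjusted p = 0.0385). RFC4 (ENSG00000163918, chromosome 3, 186789880 to 186807058), another small subunit, was at 35.9, 40.3 and 47.5 CPM with DMSO, 39.6, 40 and 29.9 after TH10785, 38.7, 40.8 and 41.2 after PNKP1i, and 49.0, 51.6 and 63.1 with the combination (log2 0.40, SE 0.14, adjusted p = 0.0337). In all of DSCC1, RFC3 and RFC4 the combination lay above every other library and TH10785 replicate 3 was the lowest of all. With offsets their differences were 0.05, -0.13 and 0.14 (adjusted p = 0.748, 0.403 and 0.408), so the direction of RFC3 turned and none of the calls held. All 3 calls were also lost without DMSO replicate 2 (adjusted p = 0.0549, 0.14 and 0.1) and without combination replicate 3 (0.0587, 0.137 and 0.16), RFC3 further without DMSO replicate 1 (0.095), PNKP1i replicate 3 (0.0527) or combination replicate 2 (0.0601), and RFC4 without DMSO replicate 1 (0.142).

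Other subunits of these complexes fell or did not pass. POLA2 (ENSG00000014138, chromosome 11, 65261762 to 65305589), the regulatory subunit of DNA polymerase alpha, read 19.2, 19.6 and 19.2 CPM with DMSO, 17.3, 17.3 and 20.8 after TH10785, 18, 19.2 and 18.7 after PNKP1i, and 11.5, 13.5 and 13.0 with the combination. The combination libraries were the lowest 3 of the 12, and POLA2 fell 1.53-fold (log2 -0.61, SE 0.14, adjusted p = 0.00266; with offsets -0.40, adjusted p = 0.0103). RFC5, a small clamp loader subunit, fell by 0.44 (adjusted p = 0.00756) and with offsets by 0.69, while RFC2 stood at -0.13 (adjusted p = 0.515). RFC2 (ENSG00000049541, chromosome 7, 74231499 to 74254458) read 112, 105 and 82.2 CPM with DMSO, 110, 113 and 149 after TH10785, 125, 121 and 135 after PNKP1i, and 83.5, 106 and 84.3 with the combination, which overlapped DMSO and lay below both single agents. POLA1 (ENSG00000101868, chromosome X, 24693919 to 24996986), the catalytic subunit of the polymerase, read 22.6, 22.5 and 22.6 CPM with DMSO, 21.8, 18.4 and 10.3 after TH10785, 16.6, 20.3 and 15.2 after PNKP1i, and 21.7, 24.4 and 29 with the combination (log2 against DMSO 0.15, SE 0.21, adjusted p = 0.599). Each single-agent library was below the DMSO libraries, and the combination overlapped them. PRIM1 and PRIM2, the primase subunits, stood at 0.31 (adjusted p = 0.132) and -0.05 (0.784), and with offsets both passed as lower, at -0.30 (adjusted p = 0.046) and -0.54 (0.00104).

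Nucleotide supply was the group with the lowest median, -0.61 over 5 genes, of which 4 fell and 0 rose. RRM2 (ENSG00000171848, chromosome 2, 10120698 to 10131419), the S-phase subunit of ribonucleotide reductase, gave 226, 242 and 270 CPM with DMSO, 173, 190 and 177 after TH10785, 224, 204 and 223 after PNKP1i, and 126, 159 and 141 with the combination. Its libraries fell in a clear order: the combination was lowest, TH10785 lay above it and below all DMSO and PNKP1i libraries, and the PNKP1i libraries lay below all DMSO libraries. RRM2 fell 1.73-fold with the combination, to 142 ± 17 CPM against 246 ± 22 (log2 -0.79, SE 0.12, adjusted p = 8.67e-05), and with offsets by 0.88 (adjusted p = 6.83e-06). TK1 (ENSG00000167900, chromosome 17, 78174075 to 78187233), the cytosolic thymidine kinase, was at 607, 709 and 607 CPM with DMSO, 605, 624 and 910 after TH10785, 786, 665 and 798 after PNKP1i, and 221, 391 and 342 with the combination. The highest combination library was below the lowest of the others, and TK1 fell 2.02-fold (log2 -1.01, SE 0.19, adjusted p = 0.00068; with offsets -0.71, adjusted p = 0.000511). TYMS (ENSG00000176890, chromosome 18, 657604 to 673578), thymidylate synthase, gave 257, 248 and 252 CPM with DMSO, 240, 256 and 257 after TH10785, 274, 257 and 261 after PNKP1i, and 132, 189 and 175 with the combination (log2 -0.61, SE 0.12, adjusted p = 0.00112). DUT (ENSG00000128951, chromosome 15, 48331011 to 48343373), the dUTPase that keeps uracil out of DNA, gave 131, 138 and 149 CPM with DMSO, 136, 145 and 140 after TH10785, 151, 151 and 146 after PNKP1i, and 84.4, 116 and 110 with the combination (log2 -0.43, SE 0.12, adjusted p = 0.00848). In both, every combination library was below every other library, and with offsets the falls were 0.64 and 0.73 on the log2 scale. RRM1, the large subunit of ribonucleotide reductase, stood at -0.11 (adjusted p = 0.573) and passed only with offsets (-0.40, adjusted p = 0.00647).

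Of the 4 regulators of S-phase entry, 3 fell. E2F2 (ENSG00000007968, chromosome 1, 23506430 to 23531220), an activating E2F factor, read 72.1, 70.9 and 71.0 CPM with DMSO, 61.4, 61.5 and 74.7 after TH10785, 79.5, 71.7 and 76.9 after PNKP1i, and 19.6, 44.2 and 39.8 with the combination. E2F1 (ENSG00000101412, chromosome 20, 33675683 to 33686404), its relative, read 191, 223 and 210 CPM with DMSO, 174, 181 and 259 after TH10785, 222, 185 and 230 after PNKP1i, and 95.7, 143 and 130 with the combination. For both factors the combination lay below every other library and its replicate 1 was the lowest. The fall of E2F2 was the largest of the 40 genes with TMM scaling, close to that of TK1, while with offsets the fall of RRM2 was the largest (-0.88). E2F2 fell 2.07-fold, with 34.5 ± 13 CPM against 71.3 ± 0.68 (log2 -1.05, SE 0.20, adjusted p = 0.00079; with offsets -0.73, adjusted p = 0.012). E2F1 fell 1.69-fold, with 123 ± 24 CPM against 208 ± 16 (log2 -0.76, SE 0.16, adjusted p = 0.00185; with offsets -0.40, adjusted p = 0.00988). CCNE1, the cyclin E that drives CDK2 at the start of S phase, fell by 0.41 (adjusted p = 0.0232), a call lost without DMSO replicate 1 (adjusted p = 0.0613) or 2 (0.0629) and without combination replicate 1 (log2 -0.24, adjusted p = 0.12). CCNE2 was expressed at 2.01 ± 0.14 CPM with DMSO and 2.73 ± 1.0 with the combination and did not pass (log2 0.44, adjusted p = 0.313).

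Among the 4 genes of chromatin copying, both tested subunits of chromatin assembly factor 1 fell. CHAF1B (ENSG00000159259, chromosome 21, 36385378 to 36419015) gave 32.3, 33.2 and 37.9 CPM with DMSO, 31.5, 35.0 and 40.3 after TH10785, 38.2, 35.4 and 39.5 after PNKP1i, and 19.5, 28.1 and 26.0 with the combination. The combination again lay below the other 9 libraries, and CHAF1B fell 1.41-fold (log2 -0.49, SE 0.15, adjusted p = 0.0136; with offsets -0.42), which was lost without DMSO replicate 3 (adjusted p = 0.0619) or combination replicate 1 (0.0707). CHAF1A fell by 0.37 (adjusted p = 0.0212), but stood at -0.09 with offsets (adjusted p = 0.538), and its call was lost without DMSO replicate 2 (adjusted p = 0.0706) or combination replicate 1 (0.111) and without a filter on low counts (0.0665). UHRF1, which guides maintenance methylation, and SLBP, which binds histone mRNA, did not pass, at -0.26 (adjusted p = 0.133) and -0.03 (0.883).

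**Figure D2:**
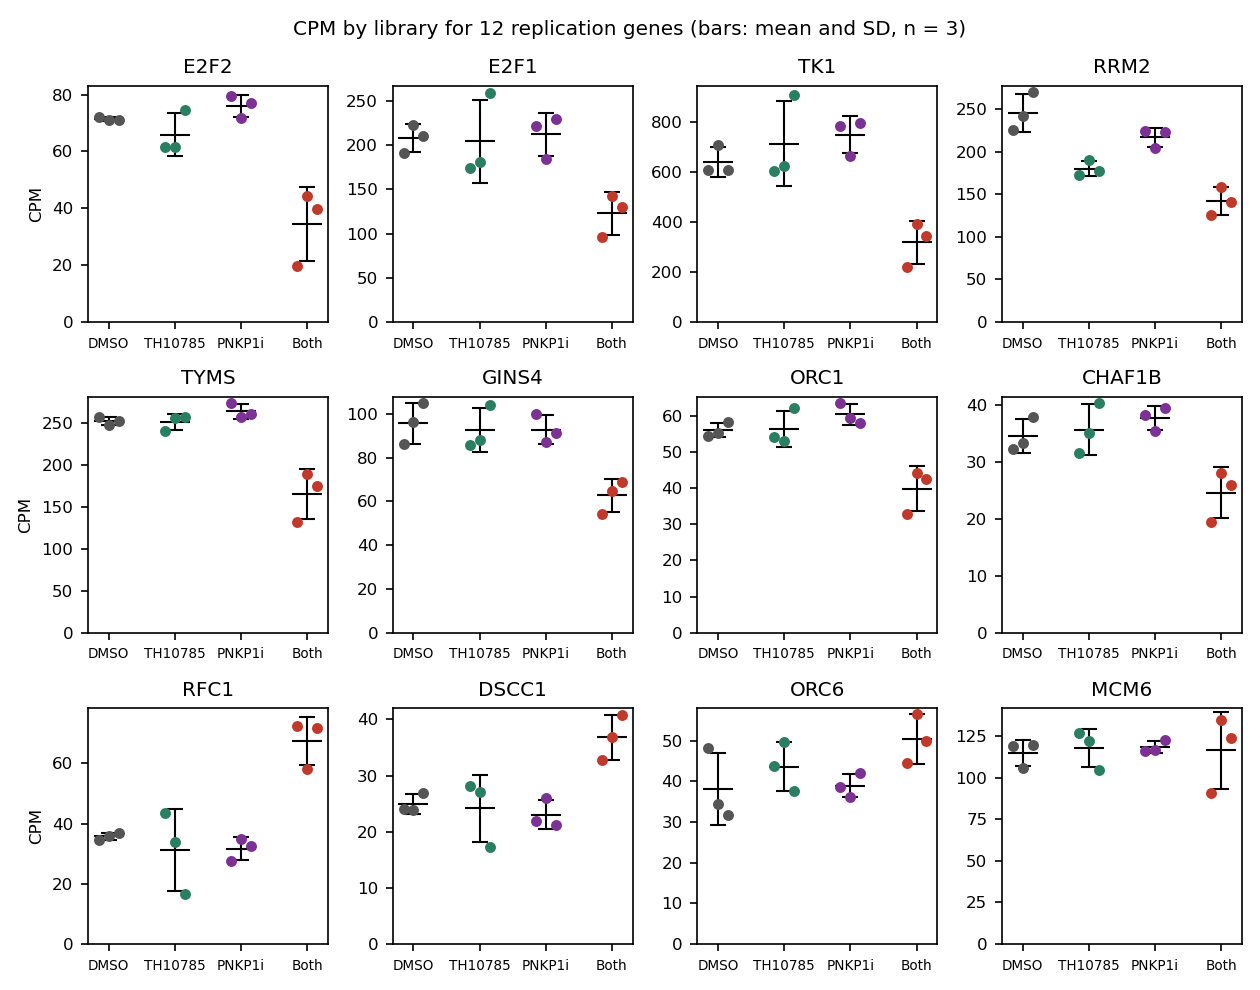
CPM (linear axis from 0) of 12 of the genes in each library, by group; dots are libraries, bars the mean and SD of 3. In the combination (Both), E2F2, E2F1, TK1, RRM2, TYMS, GINS4, ORC1 and CHAF1B lie below every other library, RFC1 and DSCC1 above, ORC6 overlaps DMSO, and the MCM6 libraries overlap between all groups.

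Across the 22 calls, 11 held in all 21 alternatives tried: ORC1, GINS4, POLA2, RFC5, RRM2, TK1, TYMS, DUT, E2F1 and E2F2, which fell, and RFC1, which rose. With GC and length offsets 14 of the calls were kept, 1 rise and 13 falls, and 5 members were added, all lower. The calls not kept were ORC6, CDT1, MCM2, MCM5, RFC3, RFC4, DSCC1 and CHAF1A, of which ORC6 changed least, to 0.31 (adjusted p = 0.0606). In that fit 16.6% of all genes were called higher and 17.5% lower, against 1 of 40 members (2.5%) higher and 18 of 40 (45%) lower.

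**Figure D3:**
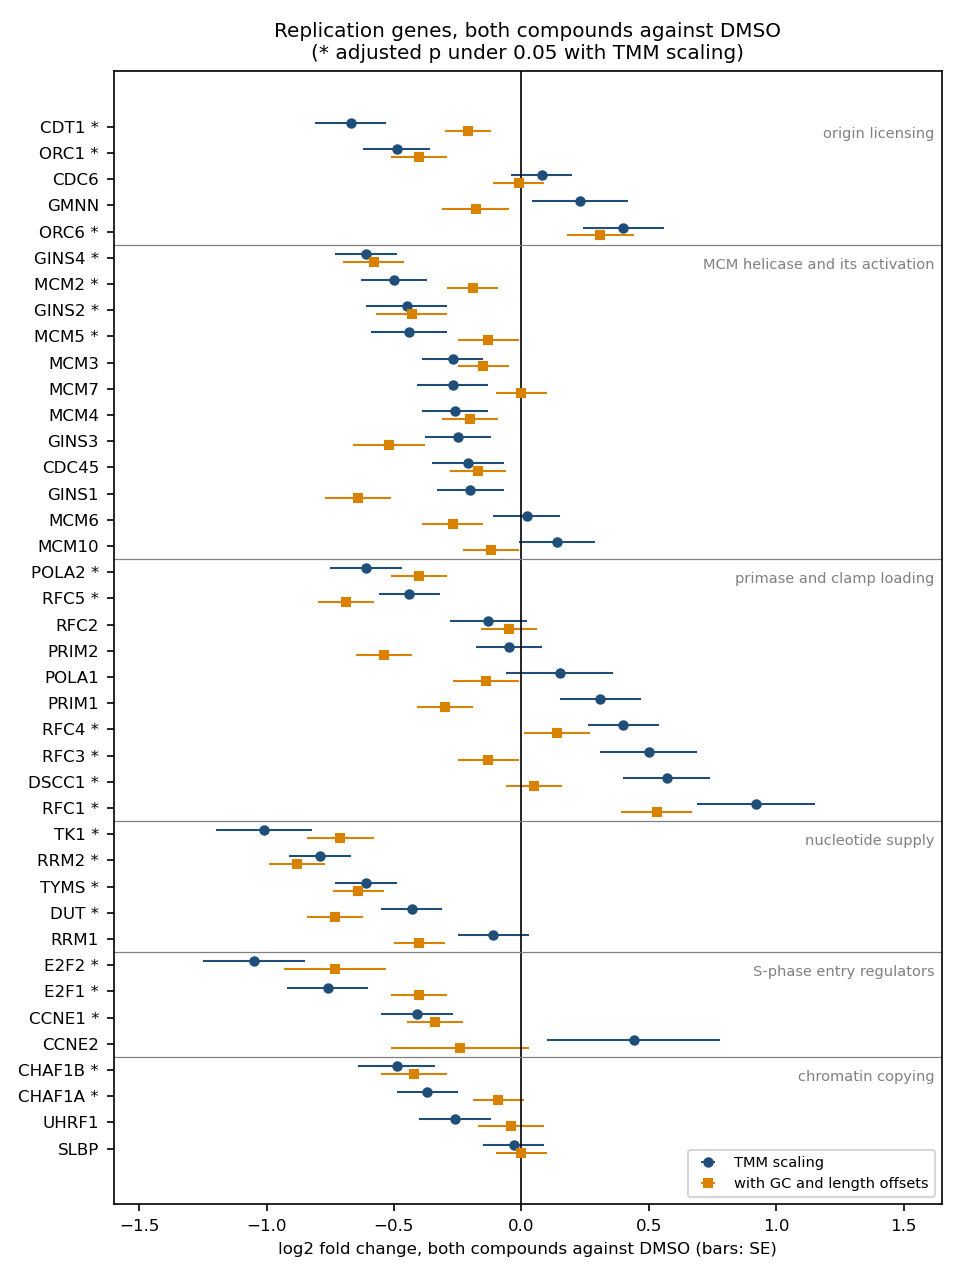
Log2 fold change of each gene, combination against DMSO, with its SE, from the fit with TMM scaling (circles) and the fit with GC and length offsets (squares), grouped by role; a star marks an adjusted p under 0.05 with TMM scaling. The nucleotide and E2F genes lie left of 0 in both fits, and the rises of RFC3, RFC4 and DSCC1 move to near 0 with offsets.

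GC content moved with these differences and is therefore given beside them. The GC content of the longest transcript had a median of 41.7% in the 5 genes that rose, 52.9% in the 17 that fell and 43.6% in the 18 with no call, against 49.3% over all tested genes. Across the 40 members the log2 difference, combination against DMSO, had a Pearson correlation of -0.70 and a Spearman correlation of -0.73 with GC content; across 17282 genes these were -0.44 and -0.52. The points share the same 12 libraries, and genes are not replicates. With offsets the correlation across members was -0.06. The offsets were fitted to GC content and length over all genes, so values near 0 over all genes follow from the fit itself. The 15 members under 45% GC had a median of 0.14 with TMM scaling and -0.27 with offsets, and the 8 members over 55% had -0.58 and -0.20. For all genes under 45% the medians were 0.50 and 0.02, and over 55% they were -0.31 and 0.00. The low-GC members thus stood below other low-GC genes in both fits, and the size of the falls in high-GC members such as CDT1 and TK1 depended on the fit.

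**Figure D4:**
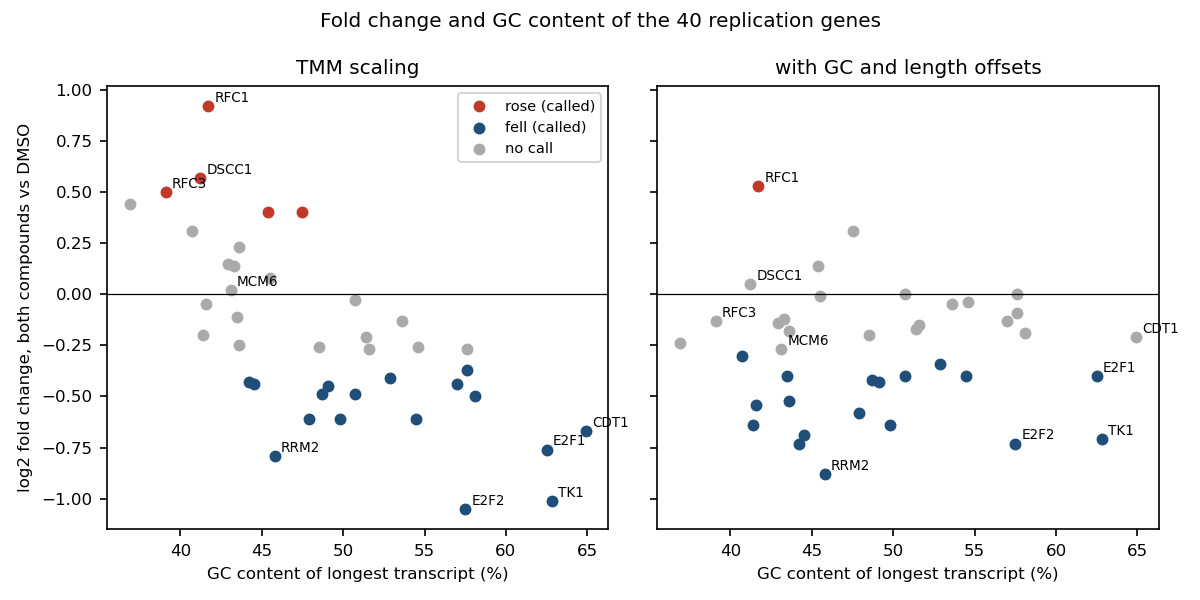
Log2 fold change, combination against DMSO, of the 40 genes (vertical) against the GC content of the longest transcript in percent (horizontal), with TMM scaling (left) and with GC and length offsets (right); colours give the call of each fit. The slope on the left (Pearson correlation -0.70) is near 0 on the right (-0.06), where most points lie under 0. The offsets were fitted to remove a relation to GC content over all genes.

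With a single compound none of the 40 genes was called. For TH10785 against DMSO 0.561% of all genes were called in edgeR, 2 members had an unadjusted p under 0.05 (14.1% of all genes did), and the members' median was 0.01. The smallest p belonged to RRM2, at -0.45 (SE 0.12, adjusted p = 0.0961), with all 3 TH10785 libraries (173 to 190 CPM) below all 3 DMSO libraries (226 to 270 CPM). DESeq2, which called 1.86% of all genes, called RRM2 (log2 -0.44, SE 0.12, adjusted p = 0.023) and no other member. The other member with an unadjusted p under 0.05 was RFC2, at 0.32 (SE 0.15, adjusted p = 0.333). For PNKP1i against DMSO 0.197% of all genes were called, 3 members had an unadjusted p under 0.05 (11.3% of all genes), and the median was 0.03. These were RFC2 (0.35, SE 0.14, adjusted p = 0.399), MCM7 (0.34, SE 0.14, adjusted p = 0.406) and UHRF1 (-0.30, SE 0.14, adjusted p = 0.436). DESeq2 called 0.853% of all genes and 0 of the members, and a fit of only these 6 libraries called RFC2 (log2 0.36, SE 0.11, adjusted p = 0.0354).

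Set against each single compound, the combination also had more members lower than higher. Compared with TH10785, 25 members were called (5 rose, 20 fell), beside 42.3% of all genes (22.7% higher, 19.7% lower). In the fit with offsets 2 rose and 23 fell, beside 15.1% of all genes higher and 18.3% lower. Of the 5 rises RFC1 and RFC4 were kept, and POLA1, RFC3 and DSCC1 were not. Compared with PNKP1i, 29 were called (7 rose, 22 fell), beside 46% of all genes (24.4% higher, 21.5% lower). With offsets 2 rose and 22 fell, beside 15.8% higher and 17.5% lower. RFC1 was the 1 rise kept of the 7, and ORC6 was added. TK1 was lower by 1.17 (SE 0.19, adjusted p = 0.000315) than with TH10785 and by 1.24 (SE 0.19, adjusted p = 0.000192) than with PNKP1i. RFC1 was higher by 1.11 (SE 0.23, adjusted p = 0.00145) and 1.09 (SE 0.23, adjusted p = 0.00123). RRM2 was lower by 0.34 (SE 0.12, adjusted p = 0.0241) than with TH10785 and by 0.61 (SE 0.12, adjusted p = 0.000673) than with PNKP1i. The first of these RRM2 calls was lost without TH10785 replicate 2 (adjusted p = 0.0799) or combination replicate 1 (0.0966) or 3 (0.0629). MCM7 and CDC45, which did not pass against DMSO, were lower than with TH10785 by 0.51 (adjusted p = 0.00934) and 0.44 (0.0181), and than with PNKP1i by 0.61 (adjusted p = 0.00266) and 0.48 (0.00985). The call for CDC45 was lost without TH10785 replicate 3 (adjusted p = 0.0536 against TH10785) and without combination replicate 1 (0.0896 against TH10785, 0.0525 against PNKP1i). With GC and length offsets MCM7 passed neither, at -0.21 (adjusted p = 0.126) and -0.26 (0.0609). These comparisons share the combination libraries with one another and with the comparison against DMSO.

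The interaction asks whether the combination differed from the sum of the single-agent differences (log2 of the combination over TH10785, less log2 of PNKP1i over DMSO). It was called in 21 members, 6 above the sum and 15 below it, against a background of 30.6% (16.5% above, 14.1% below), with a median of -0.34 over the members and 0.00 over all genes. With TMM scaling TK1 was the furthest below, at -1.39 (SE 0.27, adjusted p = 0.00561), followed by E2F2 at -1.02 (SE 0.28, adjusted p = 0.0144) and MCM2 at -0.96 (SE 0.19, adjusted p = 0.00561). With offsets GINS1 was the furthest below, at -1.05 (adjusted p = 0.00293), and TK1 stood at -0.91 (0.00563). Among the helicase genes GINS2, MCM7, MCM5, CDC45 and GINS4 were also below the sum, at -0.87 (SE 0.22), -0.84 (SE 0.20), -0.82 (SE 0.22), -0.71 (SE 0.20) and -0.52 (SE 0.18), with adjusted p = 0.0109, 0.00854, 0.0118, 0.0147 and 0.0348. In all of these helicase genes except GINS4 both single-agent means lay above the DMSO mean, so the interaction was wider than the difference from DMSO. RFC1 was the furthest above, at 1.28 (SE 0.32, adjusted p = 0.0101), followed by POLA1 at 0.95 (SE 0.30, adjusted p = 0.0245) and RFC3 at 0.79 (SE 0.26, adjusted p = 0.0314). RRM2, which was lower in every treated group than with DMSO, had an interaction of -0.16 (SE 0.16, adjusted p = 0.479).

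The remaining interaction calls were spread over the roles. RFC2 was below the sum at -0.79 (SE 0.21, adjusted p = 0.0113), while RFC4 and DSCC1 were above it at 0.62 (SE 0.20, adjusted p = 0.0313) and 0.72 (SE 0.24, adjusted p = 0.0319), as was MCM10 at 0.59 (SE 0.21, adjusted p = 0.042). ORC1 and CDT1 were below at -0.61 (SE 0.18, adjusted p = 0.0175) and -0.58 (SE 0.20, adjusted p = 0.0353), TYMS and DUT at -0.66 (SE 0.17, adjusted p = 0.0118) and -0.55 (SE 0.17, adjusted p = 0.0221), E2F1 at -0.77 (SE 0.23, adjusted p = 0.0211) and CHAF1B at -0.67 (SE 0.21, adjusted p = 0.0237). With GC and length offsets 13 of the 21 calls were kept, of which RFC1 was the only one above the sum, and 6 members were added, all below, beside 7.59% of all genes above and 11.3% below. Of the 8 calls not kept, E2F2 and RFC4 stood at -0.78 (adjusted p = 0.0642) and 0.50 (0.0615), POLA1 at 0.42 (0.126) and E2F1 at -0.29 (0.206). CDT1, DSCC1, RFC3 and MCM10 stood nearer 0, at -0.18, 0.20, 0.13 and 0.11 (adjusted p = 0.368, 0.389, 0.611 and 0.668). Leaving out PNKP1i replicate 3 gave 12 calls, leaving out DMSO replicate 1 gave 13, and leaving out TH10785 replicate 3 gave 19. Leaving out a single library ended 10 of the calls in at least 1 case, and the other 11 (ORC1, MCM2, MCM5, MCM7, CDC45, GINS2, RFC1, RFC2, TK1, TYMS and E2F2) held in each. The highest adjusted p among the lost calls was 0.102 (RFC4, without combination replicate 3), and each library except TH10785 replicates 1 and 2 ended at least 1 of them.

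The levels of different genes can be compared only per length, here as CPM per kb of the longest annotated transcript. On that scale TK1 was the highest with DMSO, at 381 ± 35, followed by MCM7 at 312 ± 27, TYMS at 152 ± 2.8 and MCM3 at 112 ± 4.5, and CCNE2 was the lowest at 0.605 ± 0.042. With the combination MCM7 (258 ± 30) ranked above TK1 (189 ± 52). Their SD ranges overlapped, but MCM7 was above TK1 in each combination library and below it in each DMSO library. E2F1 moved from rank 6 to 10 of 40, RRM2 from 9 to 15 and E2F2 from 32 to 36, while RFC1 moved from 37 to 33. The subunits of the MCM ring, which the helicase holds in equal number, did not have equal RNA levels. With DMSO MCM7 was followed by MCM3, MCM5 (92.2 ± 8.3), MCM4 (78.8 ± 4.7), MCM2 (69.8 ± 2.9) and MCM6 (30.8 ± 2.2), and with the combination by MCM3 (92.7 ± 14), MCM5 (68.1 ± 6.8), MCM4 (65.9 ± 13), MCM2 (49.4 ± 6.2) and MCM6 (31.2 ± 6.2). MCM5 and MCM4 did not differ beyond their spread with the combination. These orders rest on the transcript chosen for the length, and which isoforms the cells use was not measured here.

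**Figure D5:**
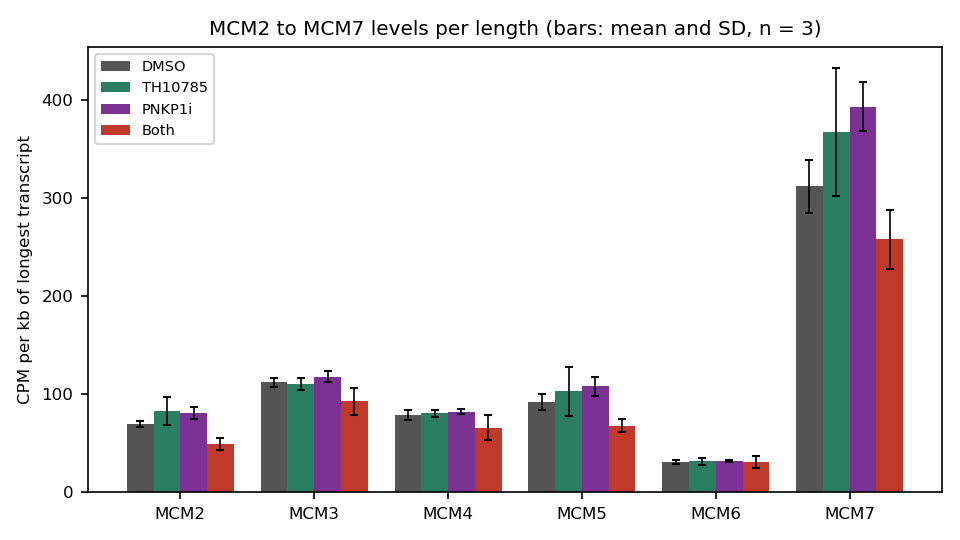
Level of MCM2 to MCM7 in CPM per kb of the longest transcript (linear axis from 0), by group; bars are the mean and error bars the SD of 3 libraries. MCM7 is the highest subunit and MCM6 the lowest in every group. Every subunit except MCM6 has its lowest mean of the 4 groups in the combination (Both), and of these MCM2 and MCM5 were called against DMSO with TMM scaling.

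The members did not move as a block. Over the 12 libraries the mean of their standardised log2 CPM lay between -0.02 and 0.37 in the 9 libraries without the combination and at -1.53, 0.08 and -0.31 in its replicates 1 to 3. MCM4 (Pearson correlation 0.97), GINS1 (0.94) and RFC5, CCNE1 and E2F2 (0.90 each) followed that mean most closely, each being a part of it, while RFC1 (-0.56), RFC4 (-0.41) and DSCC1 (-0.40) ran against it. The 5 other genes with the closest pattern, of 17250, were CD180 and ZWINT (0.976 each), SDC2 (0.973), TNNT2 (0.96) and LUARIS (0.957). All 5 were lowest in combination replicate 1, and CD180 had only 0 to 3.74 CPM over the 12 libraries. For the combination against DMSO edgeR called SDC2 and LUARIS (adjusted p = 0.00421 and 0.00184). It did not call CD180, ZWINT and TNNT2 (0.139, 0.0535 and 0.0751). ZWINT, a kinetochore protein, had 224, 210 and 191 CPM with DMSO and 108, 196 and 167 with the combination. These values describe 12 libraries of 4 groups, among which combination replicate 1, at -1.53, had the lowest value of that mean.

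A wider list of 87 replication genes outside the 40, of which 86 were tested (CDKN2A was not), gave a mixed picture: with the combination against DMSO 18 rose (20.9%) and 26 fell (30.2%), beside 21.3% and 19.7% of all genes, so the share that rose was that of the background. With GC and length offsets 7 rose (8.14%) and 27 fell (31.4%), beside 16.6% and 17.5% of all genes. This wider list too was drawn up with earlier results of these data known. In the origin and helicase control list 6 of 13 rose (46.2%) and 3 fell (23.1%), and with offsets 1 rose and 1 fell. ORC5, a core subunit of the origin recognition complex, rose by 0.93 (SE 0.18, adjusted p = 0.000779) and with offsets by 0.39 (adjusted p = 0.0238). RECQL4 and TICRR, which help load CDC45, fell by 0.61 (adjusted p = 0.0017) and 0.49 (0.00351). Only 1 gene of this list passed as lower with offsets, so at most 1 of these falls held in that fit. ORC2, ORC3 and ORC4, named after their values were seen, rose by 0.51, 1.16 and 0.89, and none of them passed with offsets, at 0.02, 0.54 and 0.29 (adjusted p = 0.929, 0.12 and 0.111). With TMM scaling the origin recognition complex thus held subunits that rose and, in ORC1, a subunit that fell. With offsets ORC5 was the only subunit still called higher, and ORC1 was still called lower.

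Among the 26 fork proteins 6 rose (23.1%, near the 21.3% of all genes) and 9 fell (34.6%, beside 19.7%). With offsets 1 rose and 6 fell. LIG1, the ligase that seals Okazaki fragments, fell by 0.81 (SE 0.13, adjusted p = 0.000216), POLD1, the catalytic subunit of DNA polymerase delta, by 0.76 (SE 0.14, adjusted p = 0.000587), and POLE2, a subunit of polymerase epsilon, rose by 0.81 (SE 0.19, adjusted p = 0.0031). All of these held with offsets, at -0.54, -0.30 and 0.45. PCNA, the sliding clamp, was at 247 ± 25 CPM with DMSO and 206 ± 48 with the combination (log2 -0.26, SE 0.15, adjusted p = 0.173), and passed only with offsets (-0.54, adjusted p = 0.00237). Of 12 further nucleotide enzymes 1 rose (8.33%) and 2 fell (16.7%), both shares under those of all genes. RRM2B, the p53-regulated partner of RRM1, read 25.7, 25.0 and 27.4 CPM with DMSO, 34.0, 31.3 and 14 after TH10785, 15.3, 20.7 and 20.0 after PNKP1i, and 66.7, 43.8 and 75.1 with the combination. RRM2B rose by 1.25 (SE 0.25, adjusted p = 0.00112; with offsets 0.58, adjusted p = 0.00193), opposite to RRM2, and SHMT1 and CAD fell by 0.58 and 0.42 (adjusted p = 0.0026 and 0.0147).

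In the list of RB, E2F and cyclin control 4 of 27 rose (14.8%, beside 21.3% of all genes) and 9 fell (33.3%, beside 19.7%). With offsets 4 rose and 14 fell. CDKN2C and CDKN2D, inhibitors of CDK4 and CDK6, fell by 1.27 (SE 0.19, adjusted p = 0.000124) and 1.11 (SE 0.23, adjusted p = 0.00135), and CCND3, a D-type cyclin, by 0.77 (SE 0.16, adjusted p = 0.00156). CDK2, the partner of cyclin E, fell by 0.41 (SE 0.13, adjusted p = 0.0157; with offsets -0.33, adjusted p = 0.0195). CDKN1A, the p53-regulated CDK inhibitor, was at 286 ± 14 CPM with DMSO and 220 ± 7.8 with the combination (log2 -0.38, SE 0.13, adjusted p = 0.029), and did not pass with offsets (-0.14, adjusted p = 0.262). Of 8 further chromatin copying genes 1 rose (12.5%) and 3 fell (37.5%), beside 21.3% and 19.7% of all genes. ASF1B, a histone chaperone, fell by 1.09 (SE 0.15, adjusted p = 6.02e-05) and DNMT1 by 0.48 (adjusted p = 0.00302). CASP8AP2 rose by 1.19 (adjusted p = 0.0235), from a low level of 1.93 to 2.87 CPM with DMSO to 4.31 to 7.55 CPM with the combination. In TH10785 replicate 3 it stood at 0.61 CPM. Values with offsets are not given here for this list.

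For comparison, a reference list of 20 mitotic genes, which are transcribed later in the cell cycle, had 2 that rose (10%) and 11 that fell (55%), beside 21.3% and 19.7% of all genes, with a median of -0.37. With offsets 0 rose and 12 fell (60%), beside 16.6% and 17.5%. PLK1 fell by 1.20 (SE 0.15), FOXM1 by 1.05 (SE 0.13) and KIF20A by 1.17 (SE 0.16), with adjusted p = 1.92e-05, 2.43e-05 and 5.04e-05. The falls of the 40 members were thus not tested as particular to S phase. With TH10785 or PNKP1i alone 0 of the 86 wider genes were called with TMM scaling in edgeR. With offsets 1 was called, POLD2, a subunit of polymerase delta, after TH10785 (0.42, adjusted p = 0.0274; with TMM scaling 0.50, adjusted p = 0.125), named after its value was seen.

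Some counts cannot be assigned to a member alone. No source used here says whether counting used strand, so reads from genes that overlap on opposite strands may be mixed or left uncounted. Of its annotated exon bases TYMS shares 39.1% with ENOSF1, which rose by 0.51 (adjusted p = 0.0116) while TYMS fell. With offsets the rise of ENOSF1 was 0.54 (adjusted p = 0.00159). CCNE2 shares 37% with INTS8, which rose by 0.67 (adjusted p = 0.0136) but stood at 0.09 with offsets (adjusted p = 0.655). POLA2 shares 35.1% with AP000944.2 and RRM2 shares 20.2% with AC007240.1, both on the same strand; these stood at 1.13 and 2.54 CPM with the combination, well under their partners. MCM2 and GINS4 share 22.7% and 21.2% with antisense genes at 0.202 and 0.293 CPM. The low counts of these overlapping genes do not show how reads in the shared bases were assigned, or whether the member lost them. Named pseudogenes that could take reads are annotated for DUT (8), RRM2 (3), TYMS (2), RFC3 (1) and RFC5 (1), so the levels of these genes are uncertain to that extent.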

How the data were processed

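RNA from 12 libraries of U2OS cells (4 groups of 3) was sequenced as paired reads, per the labels' protocols. HISAT2 2.0.5 and HTSeq 0.6.1 stand in the submitters' processing notes, with DESeq2 1.30.1 and the build GRCh38; annotation and strand setting are not given in the sources used here. The authors deposited raw read counts for 58735 genes, whose identifiers all occur in GENCODE release 29, used here for positions, transcript length and GC content. A second deposited table of the same counts divided by size factors was not used. Tests used edgeR 4.0.16 (R 4.3.3) on the raw counts: filterByExpr by group (minimum count 10, minimum total 15) kept 17290 genes, TMM scaled the libraries, and robust quasi-likelihood fitted a mean per group to all 12 of them. Two-sided F tests were adjusted by Benjamini-Hochberg over all tested genes in each of 6 comparisons; called means an adjusted p under 0.05. SDs are over the 3 libraries of a group, and SEs come from the model, whose dispersion is shared by all 12; the labels do not say that these were separate cultures, so p-values measure only the spread between libraries, which may be technical. Replicates were not identical, with a chi-square of 3.02 to 36.5 per gene between them. CPM is the count over the TMM-scaled library total; where a symbol had 2 rows (POLA2), the row with that GENCODE name was used. Alternatives were upper-quartile and RLE scaling, limma-voom (limma 3.58.1), DESeq2 1.42.0, no filter, a stricter filter (CPM of 1 in 3 libraries, summed count of 120), only the groups compared, the replicate number as a block, offsets per library from splines (5 degrees of freedom) of GC content and length of the longest transcript (known for 17282 genes), and each library left out in turn. Promoters are from RefSeq (GRCh38.p14). The test was tested on simulated data. The 40 members, their 6 roles and the wider lists were chosen with earlier results of these data known. Genes with values in each library are, in each role, the called member with the smallest p for a rise and for a fall (combination against DMSO) and every member called in the interaction; of the wider lists, up to 3 called genes with the smallest p, and PCNA, CDKN1A and CDK2. RRM2B was given in each library after its values were seen. Also added after their values were seen were the library values of ZWINT, CASP8AP2 and CD180 and the calls of the genes closest to the member mean. The same holds for the statistics of the mitotic genes and the overlapping genes.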

Additional observations from a re-analysis of the deposited data

Results flagged for a closer look

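In 21 of the 40 genes the effect of 1 compound differed with the other compound present, by the test of the interaction (log2 of the combination over TH10785, less log2 of PNKP1i over DMSO; edgeR's quasi-likelihood test, adjusted p under 0.05 over all genes; 30.6% of all genes passed). Below the sum of the single-agent differences were TK1 (-1.39), E2F2 (-1.02), MCM2 (-0.96), GINS2 (-0.87), MCM7 (-0.84), MCM5 (-0.82), RFC2 (-0.79), E2F1 (-0.77), CDC45 (-0.71), CHAF1B (-0.67), TYMS (-0.66), ORC1 (-0.61), CDT1 (-0.58), DUT (-0.55) and GINS4 (-0.52). Above it were RFC1 (1.28), POLA1 (0.95), RFC3 (0.79), DSCC1 (0.72), RFC4 (0.62) and MCM10 (0.59). These values are with TMM scaling. With GC and length offsets 13 of the 21 calls were kept, and CDT1, MCM10, POLA1, RFC3, RFC4, DSCC1, E2F1 and E2F2 were not. Leaving out a single library ended 10 of the 21 in at least 1 case. In MCM7, CDC45, RFC2, MCM10 and POLA1 the interaction was called although the combination did not pass against DMSO, and in each of them the single-agent means lay on the other side of the DMSO mean from the interaction's sign. POLA1 and MCM10 were lowest in TH10785 replicate 3; without that library the interaction of MCM10 was 0.41 (adjusted p = 0.0667) and that of POLA1 was still called. With GC and length offsets they were 0.11 (adjusted p = 0.668) and 0.42 (0.126), and the call of POLA1 was also lost without DMSO replicate 3 (adjusted p = 0.0525), PNKP1i replicate 1 (0.0601) or 3 (0.0693), or combination replicate 3 (0.0728).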

How the results depend on the processing

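Of the 22 members called with the combination against DMSO, 11 held in all 21 alternatives. The direction of RFC3 was the only one to reverse among members called with TMM scaling: with GC and length offsets it was -0.13 against DMSO and -0.06 against TH10785. PRIM1, not called with TMM scaling, stood higher than with DMSO in that fit and was called lower with offsets. The number that rose was 5, and 2 with the replicate block and 1 with GC and length offsets. No member was called for TH10785 or PNKP1i against DMSO except 1 by DESeq2 for TH10785 (RRM2) and 1 in the fit of only the groups compared for PNKP1i (RFC2). Leaving out each library in turn gave 14 to 23 called members for the combination against DMSO (1 to 6 rose, 12 to 20 fell), 20 to 28 against TH10785, 21 to 33 against PNKP1i, 12 to 24 for the interaction, and 0 to 0 for each single agent; the lowest counts came without DMSO replicate 2 (14 called), combination replicate 3 (1 rose) and PNKP1i replicate 3 (12 interaction calls). Replicate numbers showed no sign of pairing the libraries: 1 of 18 same-number pairs had deviations correlated over 0.1 (range -0.25 to 0.13), and 1 of 12 libraries correlated best with its own number. The labels do not state a pairing, and with 3 libraries a group one could go unseen. With the replicate block, which ended the calls of ORC6, RFC3 and RFC4, 19 members were called against DMSO, 24 against TH10785, 25 against PNKP1i and 19 for the interaction. With 3 libraries a group, small single-agent differences may not have been detectable; CCNE2, at about 2 CPM, is the member with the fewest reads.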
